A study of Homo sapiens with 19 samples.

Results

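Mitochondrial ribosomal protein (MRP) genes are nuclear genes for the protein subunits of the ribosome inside mitochondria. Their members were the protein-coding genes of the RNA table whose symbol begins with MRPL or MRPS followed by a digit. There were 77 of them among 24076 genes with a valid estimate, and all 77 passed the filter on low values (a mean RNA level of 1 FPKM or more) that 11671 genes passed. The data came from U2OS, an established human osteosarcoma cell line. Cells received siRNA against EP400 or a mock siRNA directed against GFP, and were taken 72 hr later. EP400 is a chromatin remodelling ATPase that works in a complex with the acetyltransferase TIP60, and by its title the series concerns its part in putting the histone variant H3.3 on regulatory DNA. RNA and chromatin immunoprecipitation (ChIP) of RNA polymerase II (Pol II), the Mediator subunit MED26 and the histone variants H3.3 and H2AZ were done after EP400 siRNA and after mock siRNA, with 1 library for each antibody and condition. The marks H3K18ac and H3K4me1 were profiled after mock siRNA. The 3 EP400 immunoprecipitations came as 1 list of peaks, and the labels name no siRNA treatment for their columns. With 1 library per condition, no difference has a replicate check, a test or a p-value.

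The mitochondrial ribosome translates the messenger RNAs of mitochondrial DNA, which encode core proteins of the respiratory chain and of ATP synthase. It has a small subunit, which decodes the message, and a large subunit, which forms the peptide bonds. All of its proteins are made in the cytosol and imported. Some have counterparts in bacterial ribosomes, and others exist only in mitochondria. Factors of the GABP (ETS), NRF1 and YY1 families are known to bind promoters of many nuclear genes for mitochondrial proteins.

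The RNA of EP400 itself had 2.28 FPKM (deposited limits 0.162 to 4.41) after EP400 siRNA and 10.04 FPKM (0.165 to 19.9) after mock siRNA, a log2 ratio of -1.75. FPKM is the number of fragments scaled to transcript length and to the mapped fragments of the library. Summed over the table it came to 584131 after EP400 siRNA and 983896 after mock siRNA, and with no read counts given the depth is unknown. Of 10 listed genes of the osteoblast lineage, 6 passed the filter, among them COL1A1, SPARC, RUNX2 and ALPL, whereas COL1A2, IBSP, BGLAP and SP7 did not. COL1A1, a collagen chain of bone, was at 60.8 FPKM after EP400 siRNA and 376 FPKM in mock cells, and ALPL, an alkaline phosphatase, at 7.75 and 2.31 FPKM in the same order. Of 8 markers of blood, epithelial, endothelial, liver and glial cells none passed, with PTPRC, CD3E, EPCAM, CDH1, PECAM1, ALB, HBB and GFAP all below 1 FPKM in both libraries.

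The median MRP gene stood at nearly the same RNA level on the deposited scale, with a median of 48.2 FPKM after EP400 siRNA and 46.7 FPKM after mock siRNA, but the abundant members were lower. Summed over the 77 genes the level was 5211 FPKM after EP400 siRNA and 8086 FPKM after mock siRNA, or 64.4%, against 58.3% over all genes analysed. Single genes ran from 40.2% (MRPS34) to 241% (MRPS30) of their mock FPKM. The log2 ratio of EP400 siRNA over mock, computed after adding 1 FPKM to both values, had a median of 0.03 with a middle range from -0.90 to 0.59, against a median of -0.20 over all genes analysed. The extremes were -1.31 (MRPS34) and 1.18 (MRPL15). At a threshold of 2-fold, 10 of 77 members (13.0%) were lower after EP400 siRNA, against 22.9% of all genes analysed. Another 3 members (3.90%) were at least 2-fold higher, against 6.11% of all genes. A ratio above 0 was found for 39 members (50.6%), against 42.7% of all genes. These counts depended on scaling. When the FPKM were rescaled to equal sums the members' median became 0.76 and that of all genes 0.44. At 2-fold 0 of 77 members were then lower and 31 higher, against 5.56% and 27.95% of all genes. Higher genes were thus rarer among the members than among all genes as deposited, and more common after rescaling. That rescaling shifts the ratio of an abundant gene by 0.75, so every count above 0 given here holds for the deposited scale. The 10 lower members were below 0 and the 3 higher ones above 0 under each scaling tried. In bulk RNA, less RNA in every cell and fewer cells that express a gene cannot be told apart.

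The deposited confidence limits were wide. Summed over transcripts, the upper limit of the median member was 1.93 times its FPKM after EP400 siRNA and 1.95 times in mock cells, and the lower limit was 0 in at least 1 library for 28 members. For the 30 members with more than 1 transcript row such sums are not confidence limits of the gene and can be wider. The intervals of EP400 siRNA and mock, summed in this way, overlapped for all 77 members, as they did for all but 0.214% of the genes analysed.

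**Figure D1:**
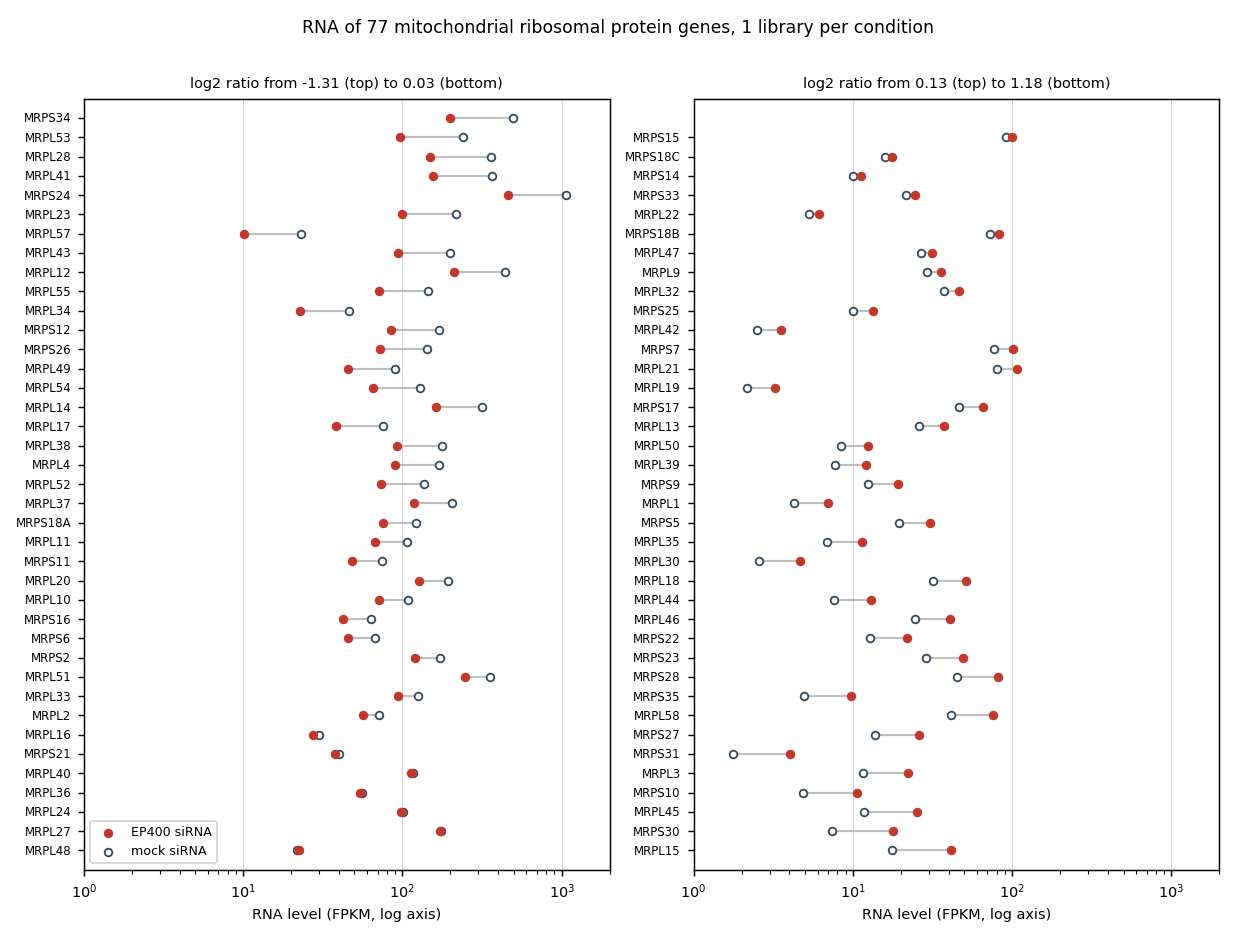
RNA level (FPKM, log axis) of each of the 77 MRP genes in the EP400 siRNA library (filled red) and the mock library (open), ordered by log2 ratio from MRPS34 (-1.31) to MRPL15 (1.18). Genes with less RNA after EP400 siRNA lie mostly at high FPKM, and every gene of the panel that runs from 0.13 to 1.18 has more.

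The members with the lowest ratios were mostly abundant transcripts of the large subunit. MRPS34, a protein of the small subunit found only in mitochondria, had 199.6 FPKM (0 to 489) after EP400 siRNA and 497 FPKM (0 to 1258) in mock cells. Its locus is chr16:1821896-1823140 (hg19). MRPL53, a large-subunit protein with no bacterial counterpart, had 96.7 and 240 FPKM in the same order (log2 ratio -1.30). MRPL28 of the bacterial type had 149 and 361 FPKM (-1.27), and MRPL41 of the mitochondrial type 156 and 364 FPKM (-1.21). The limits, summed over transcripts for MRPS34 and as deposited for the others, overlapped for each of these 4. Their FPKM after EP400 siRNA were 40.2 to 42.9% of the mock value.

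MRPS24, the most abundant member, had 461 FPKM after EP400 siRNA and 1061 FPKM in mock cells (log2 ratio -1.20). Its locus also holds URGCP and a read-through transcript of both genes, so part of this signal may be shared. MRPL12, the stalk protein that helps recruit translation factors, had 212 FPKM after EP400 siRNA and 439 FPKM in mock cells (-1.05). The remaining members of the 10 lowest were MRPL23, a protein of the polypeptide exit tunnel region (-1.12), MRPL57 (-1.11), MRPL43 (-1.08) and MRPL55 (-1.01). MRPL57 was the only one of these 10 with a mean level under 34.2 FPKM, at 10.2 FPKM after EP400 siRNA and 23.1 FPKM in mock cells. Of the 6 members with the highest mean level, MRPS24, MRPS34, MRPL12, MRPL41 and MRPL28 were at least 2-fold lower, and MRPL51 stood at 247 FPKM after EP400 siRNA and 353 FPKM in mock cells (-0.51).

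At the other end, 3 genes of the large subunit passed 2-fold. MRPL15 (chr8:55047781-55061074, hg19) had 41.03 FPKM (4.202 to 77.9) after EP400 siRNA and 17.6 FPKM (2.23 to 32.97) in mock cells. MRPS30 (chr5:44809027-44815618), which sits in the large subunit despite its name, had 17.9 FPKM (2.27 to 33.5) after EP400 siRNA and 7.42 FPKM (0.855 to 13.98) in mock cells (log2 ratio 1.17). MRPL45 (chr17:36452989-36479101), which in mammals helps attach the ribosome to the inner membrane, had 25.1 FPKM after EP400 siRNA and 11.7 FPKM in mock cells (1.04). Their FPKM were 215 to 241% of the mock value, and the limits of both libraries overlapped for each.

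Below the threshold followed MRPS10, at 10.6 FPKM after EP400 siRNA and 4.87 FPKM in mock cells (log2 ratio 0.98, or 218% of the mock FPKM without the added 1), and MRPL3, a protein close to the peptidyl transferase centre, at 22.2 and 11.6 FPKM (0.88). MRPS27, a pentatricopeptide repeat protein, had 26.1 FPKM after EP400 siRNA and 13.8 FPKM in mock cells (0.87). MRPL58, a peptidyl-tRNA hydrolase built into the large subunit, had 75.9 FPKM after EP400 siRNA and 41.6 FPKM in mock cells (0.85). MRPS35 (0.85), MRPS28 (0.84) and MRPS23 (0.75) completed the 10 highest among members with a mean of 5 FPKM or more. MRPS31 (0.87) lay below that level, at 4.05 FPKM after EP400 siRNA and 1.76 FPKM in mock cells.

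The 51 members of the large subunit had a median log2 ratio of -0.04, with 8 at least 2-fold lower and 3 higher. The 26 of the small subunit had a median of 0.17, with 2 lower and 0 higher. The 46 proteins with bacterial counterparts (median -0.02, 5 lower, 1 higher) and the 31 found only in mitochondria (0.17, 5 lower, 2 higher) also covered nearly the same range. Their extremes were -1.27 and 1.18 for the bacterial type and -1.31 and 1.17 for the other. Both subunits and both origins thus held genes near each end of the range.

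The ratio varied with RNA level and with gene neighbourhood. With all genes analysed divided into 5 equal classes of mean FPKM, 46 members fell in the top class (34.2 FPKM or more). These had a median of -0.61, with 10 above 0 (21.7%) and 9 at least 2-fold lower (19.6%). All genes of that class had a median of -0.93, with 16.4% above 0 and 45.2% lower. The 17 members of the next class had a median of 0.59 with 15 above 0, whereas all genes of that class had a median of -0.56. The 10 and 4 members of the next classes down (from 2.30 to 11.96 FPKM) were all above 0. Across the 77 genes, Spearman's rho between log2 ratio and log2 mean FPKM was -0.73 (Pearson's r -0.72), against -0.37 (r -0.35) over all genes. The mean FPKM shares both libraries with the ratio, and genes are not independent replicates.

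Local gene density, the number of loci within 500 kb, gave a similar order. In the class with the fewest neighbours (1 to 7 loci) 15 of 15 members were above 0, with a median of 0.59, and in the densest class (26 to 81 loci) 3 of 22 were, with a median of -0.92. Over all genes 67.7% and 11.95% of the same classes were above 0. Spearman's rho with density was -0.66 across the members (Pearson's r -0.65) and -0.47 across all genes (r -0.43). Both features came together, because 33 of the 46 members in the top level class lay in the upper 2 density classes. Within the top level class the median ran from 0.57 (2 members) and 0.40 (3 members) in the sparsest density classes to -0.23 (8), -0.90 (11) and -0.92 (22) in the denser ones. Over all genes of that level class the medians in the same order were -0.31, -0.36, -0.80, -0.92 and -1.13.

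Centred on the median of genes of like level and transcript length, the members had a median of 0.47 and 59 of 77 were above 0. Centred on density classes the median was 0.16. On the values as deposited, 26 of 78 cytosolic ribosomal protein genes were at least 2-fold lower and 0 higher (median -0.68). Of 76 nuclear genes for oxidative phosphorylation 31 were lower and 0 higher (median -0.77). The median level was 56.4 FPKM in the MRP genes, 662 FPKM in the cytosolic ribosomal protein genes and 156 FPKM in the oxidative phosphorylation genes. Centred on genes of like level and length, the medians of these other families were 0.22 and 0.04.

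**Figure D2:**
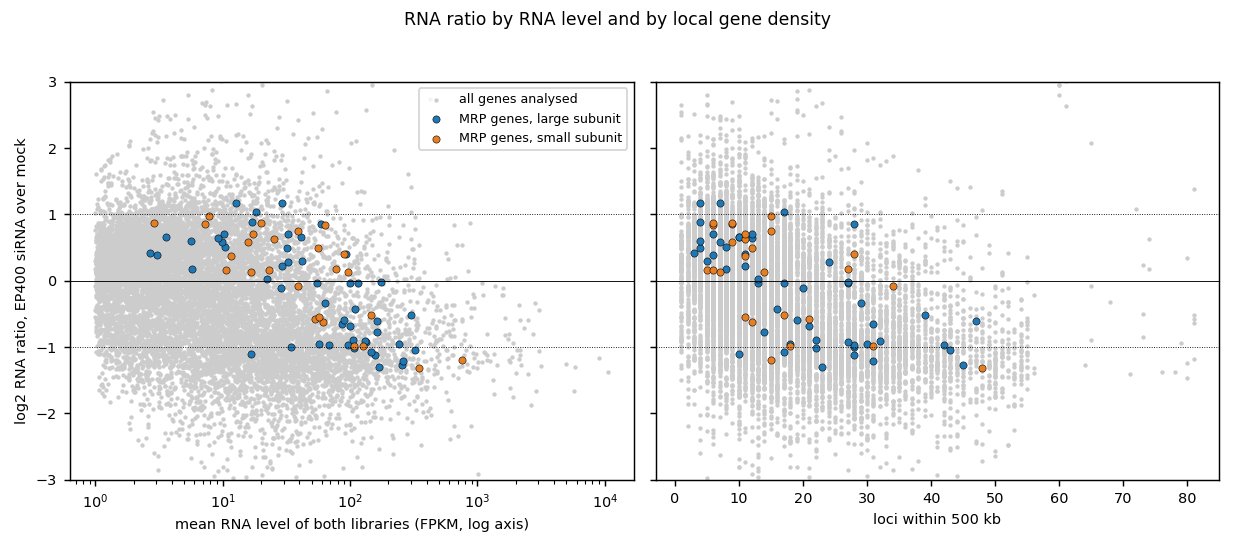
Log2 RNA ratio of EP400 siRNA over mock against mean RNA level (left, FPKM, log axis) and against the number of loci within 500 kb (right), for all 11671 genes analysed (grey) and the MRP genes of the large (blue) and small (orange) subunit. Dotted lines mark 2-fold, 47 genes lie outside the axis limits of 3, and the MRP genes run from upper left to lower right in both panels.

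The spread within a chromosome varied. All 4 members on chromosome 19 (MRPL34, MRPS12, MRPL54 and MRPL4) had ratios between -0.99 and -0.91, where all 831 genes of that chromosome had a median of -1.05. The 2 on chromosome 16, MRPS34 and MRPL28, stood at -1.31 and -1.27, where all genes had a median of -0.78. All 4 members on chromosome 3 and all 3 on chromosome 8 were above 0, as were 55.7% and 58.0% of all genes there. In contrast, the 8 members on chromosome 17 ran from -1.05 to 1.04, the 8 on chromosome 2 from -1.30 to 0.70 and the 6 on chromosome 6 from -0.96 to 0.98.

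The RNA table held 136 transcript rows for the members, and 47 members had a single row. In 29 of the 30 members with more, the same transcript led in both libraries. MRPS27 was a case where a second transcript added to the difference, since NM_001286751 had 8.04 FPKM after EP400 siRNA and 0.562 FPKM in mock cells, and the main transcript NM_015084 had 18.1 and 13.3 FPKM in the same order. For MRPL52, NM_181306 was listed at 0 after EP400 siRNA and at 10.3 FPKM in mock cells, and for MRPS18A, NM_001193343 was listed at 0 and 8.01 FPKM in that order. Division of reads among transcripts of 1 gene is an estimate, and RefSeq lists pseudogenes for 41 of the 77 members, which can take or give reads. A locus with more than 1 gene held 16 members.

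Genes that work with the mitochondrial ribosome were read beside its proteins. Of 5 mitoribosomal proteins with other names, DAP3 of the small subunit, a GTP-binding protein, had 29.8 FPKM after EP400 siRNA and 14.1 FPKM in mock cells (log2 ratio 1.02). AURKAIP1 had 143 and 294 FPKM (-1.04), GADD45GIP1 104 and 204 FPKM (-0.97) and CHCHD1 64.3 and 122.8 FPKM (-0.92) in the same order. PTCD3, a pentatricopeptide repeat protein, had a ratio of 0.68.

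Among translation factors 15 of 16 passed the filter on low values, 4 were at least 2-fold higher (26.7%, against 6.11% of all genes) and 1 lower (6.67%, against 22.9%), with a median of 0.34. Initiation factor MTIF2 had 8.19 FPKM after EP400 siRNA and 2.85 FPKM in mock cells (1.26). The elongation and recycling factor genes GFM1 and GFM2 had log2 ratios of 1.03 and 1.21, and LRPPRC, which keeps mitochondrial messenger RNA stable, 1.13. The elongation factor gene TUFM, at 159 FPKM after EP400 siRNA and 349 FPKM in mock cells (-1.13), was the lower one.

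Of 19 assembly factors analysed, 1 was higher at 2-fold (5.26%) and 0 lower (median -0.07), against the same 6.11% and 22.9% of all genes. It was GRSF1, an RNA-binding protein of mitochondrial RNA granules, with 16.6 FPKM after EP400 siRNA and 6.61 FPKM in mock cells (1.21). FASTKD2 (0.94), the helicase DHX30 (-0.94) and the GTPase MTG1 (-0.84) came next in size. Of 17 analysed genes for transcription and RNA processing in mitochondria or its control, 3 were higher (17.6%) and 1 lower (5.88%), with a median of 0.61. The RNA helicase SUPV3L1 (1.44) and its partner PNPT1 (1.37), which degrade mitochondrial RNA together, and TRMT10C (1.18), a subunit of mitochondrial RNase P, were higher. HSD17B10, another subunit of that enzyme, was lower, at 119 FPKM after EP400 siRNA and 249 FPKM in mock cells (-1.05). AURKAIP1, TUFM and HSD17B10, the genes of these lists at least 2-fold lower, all lay in the top level class.

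EP400 peaks lay near an end of 34 of the 77 members (44.2%, Wilson 95% interval 33.6 to 55.3), against 36.0% of all genes analysed. A gene end here means any place up to 2 kb from the left or right limit of the gene's locus, because the table gives no strand. All genes weighted to the members' level classes had 44.4%, and the cytosolic ribosomal protein genes 82.1%. With an overlap of 100 bp or more required, the share was 28.6%, against 24.5% of all genes. The intervals cover counting error alone. The 34 comprised 21 genes of the large and 13 of the small subunit, of which 24 had 1 peak, 8 had 2 and MRPL40 and MRPS18B had 3.

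The 46 peaks had a median width of 100 bp. The widest were 350 bp long, at MRPL12 (chr17:79670351-79670700, hg19) and MRPL40 (chr22:19420001-19420350), followed by 300 bp at MRPL21 (chr11:68671251-68671550) and MRPL3 (chr3:131221701-131222000). The centres of these 4 peaks were 125, 139, 97 and 9 bp from the nearest end of the locus. Of the 46 peaks, 22 overlapped a Pol II peak after EP400 siRNA (47.8%) and 35 one after mock siRNA (76.1%), against 57.8% and 71.95% of the 4517 EP400 peaks at ends of all genes analysed. For MED26 the numbers were 27 after EP400 siRNA and 32 after mock siRNA (58.7% and 69.6%, against 51.8% and 61.8%), and for H2AZ 9 and 22 (19.6% and 47.8%, against 16.6% and 40.1%). For H3.3 they were 0 after EP400 siRNA and 5 after mock siRNA (0% and 10.9%, against 3.76% and 19.2%). H3K18ac overlapped 23 (50%, against 56.9%) and H3K4me1 overlapped 1 (2.17%, against 3.28%).

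The 34 members with an EP400 peak had a median RNA ratio of 0.08, and the 43 without one -0.03. In the top level class 21 members with a peak had a median of -0.43, with 2 at least 2-fold lower (9.52%), and 25 without one had -0.90, with 7 lower (28%). Over all genes of that class the medians were -0.88 and -0.98, and 42.1% and 48.3% were lower. The members' order was the opposite in both classes below. In the next class 7 members with a peak had a median of 0.17 and 10 without one 0.61. In the class under that, 4 with a peak had 0.49 and 6 without one 0.62. All genes of these classes had -0.40 with and -0.65 without a peak, and 0.08 and -0.17. Spearman's rho between EP400 peak length at the ends and log2 ratio was 0.05 across the members (Pearson's r 0.00), and over all genes it was -0.00 (r -0.01).

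**Figure D3:**
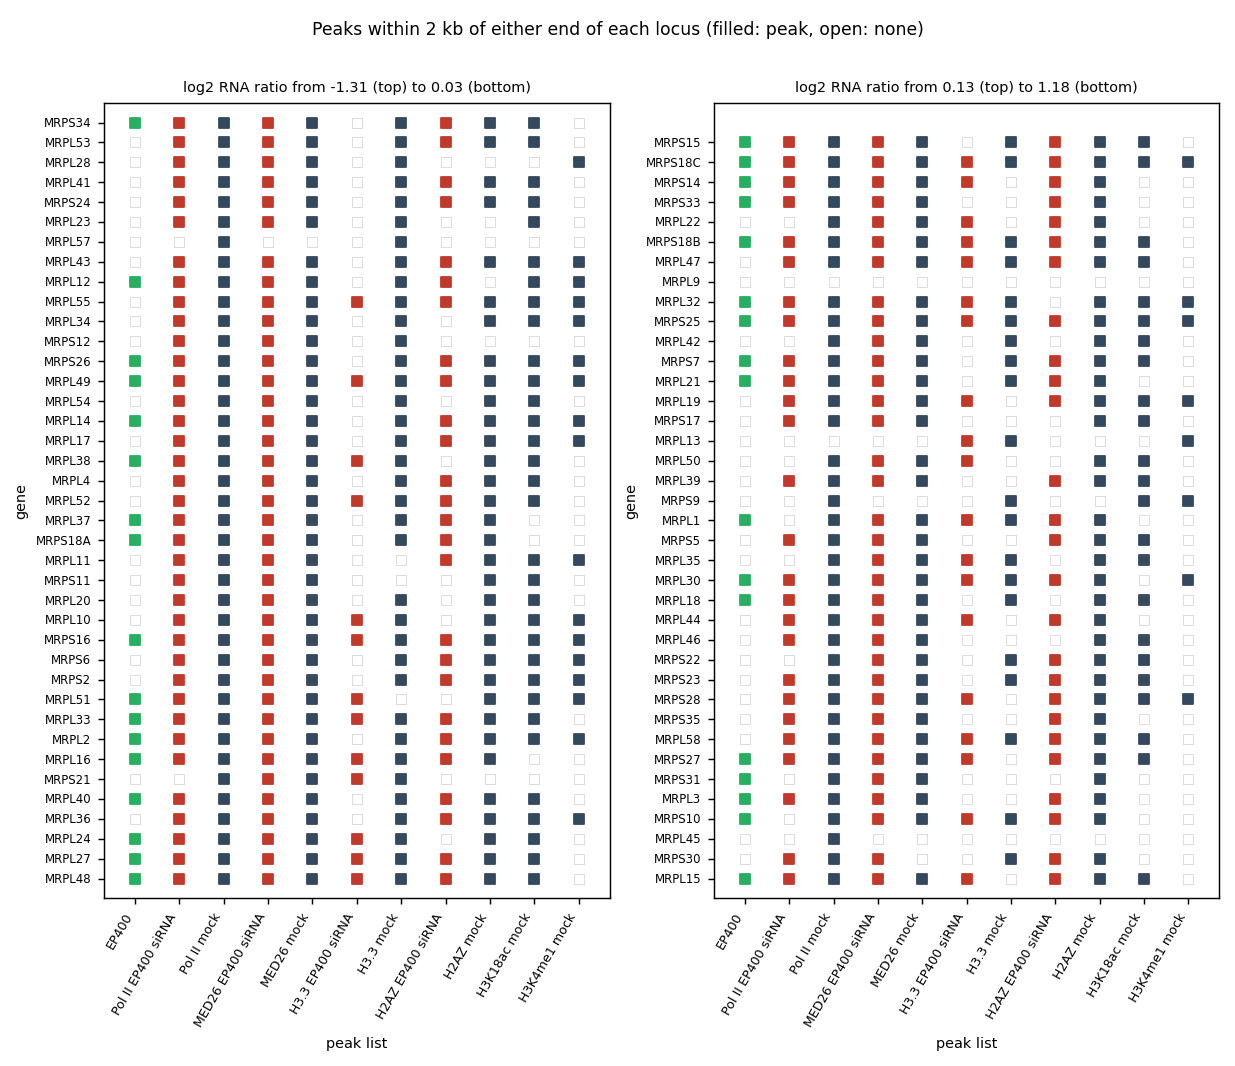
Presence (filled) or absence (open) of a peak within 2 kb of either end of each MRP locus, for the EP400 list (green) and the lists after EP400 siRNA (red) and mock siRNA (dark), with genes ordered by log2 RNA ratio. The Pol II and MED26 columns are nearly full, and 10 of the 12 open Pol II squares that face a filled mock square are at ratios above 0. The 9 genes with the lowest ratios have H3.3 after mock siRNA but not after EP400 siRNA. Among these, MRPS24, MRPL57 and MRPL43 lie in loci with other genes.

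Promoter sequence was taken from RefSeq (GRCh38.p14), from 250 bases before to 50 after the gene start, for 69 of the 77 members. MRPL10, MRPL13, MRPL15, MRPL2, MRPL21, MRPL23, MRPL35 and MRPS28 had no match. The 150 bases before the start are printed 5′ to 3′ on the gene's strand for MRPL12 and MRPL40, which held the widest EP400 peaks, for MRPS34, which had the lowest ratio, and for MRPS30, which had the second highest and gained a MED26 peak. Capitals mark the motif letters searched on both strands, which were CCGGAAG (ETS), GGGCGG (SP), CCAAT, AAGATGGC (YY1), the NRF1 palindrome, CACGTG (E-box), TGACGTCA (CRE) and TATAAA. A match on the other strand is printed as its reverse complement.
MRPL12 (chr17:81703217-81703366, plus strand): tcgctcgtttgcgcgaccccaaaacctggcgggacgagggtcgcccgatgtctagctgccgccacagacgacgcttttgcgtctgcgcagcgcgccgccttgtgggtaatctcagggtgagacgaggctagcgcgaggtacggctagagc
MRPL40 (chr22:19432395-19432544, plus strand): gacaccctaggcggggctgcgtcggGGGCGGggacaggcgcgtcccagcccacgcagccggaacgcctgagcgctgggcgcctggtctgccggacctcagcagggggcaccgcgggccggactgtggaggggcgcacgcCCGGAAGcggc
MRPS34 (chr16:1773135-1773284, minus strand): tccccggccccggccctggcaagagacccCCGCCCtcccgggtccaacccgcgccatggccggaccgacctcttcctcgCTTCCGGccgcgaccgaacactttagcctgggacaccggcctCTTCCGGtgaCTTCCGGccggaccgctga
MRPS30 (chr5:44808797-44808946, plus strand): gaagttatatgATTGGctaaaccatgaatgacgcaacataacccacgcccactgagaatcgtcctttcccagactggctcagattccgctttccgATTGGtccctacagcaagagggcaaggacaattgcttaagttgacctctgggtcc
The stretch of MRPS34 held 3 matches to the ETS letters and 1 to SP, that of MRPL40 held 1 of each, that of MRPS30 held 2 CCAAT boxes, and that of MRPL12 held none of the letters searched.

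Over the whole windows the YY1 letters were present in 21 of 69 members (30.4%), against 6.75% of the 8693 analysed genes with a window. The ETS letters were present in 30 (43.5%), against 23.4%. SP letters were in 60.9% of the members and 78.9% of the analysed genes, and CCAAT in 33.3% and 43.2%. The NRF1 palindrome and the CRE were each in 1 member (1.45%), against 2.6% and 4.04%, the E-box in 13.0% of both, and TATAAA in 4.35% and 8.10%. The median GC content of the windows was 60% in the members and 65.2% in the analysed genes. The letters of YY1 and ETS can overlap in AAG, and a match is a description of sequence, not of binding.

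The YY1 letters lay mostly just after the start of transcription in the MRP genes. Of 22 matches, 18 lay on the gene's own strand and 16 began after that start. The letters contain ATG, the triplet of a start codon, and whether translation begins there was not tested. Positions were not counted over all genes. Matches are given in capitals, with 10 bases on each side and on the gene's strand. Shown are the members among the 10 highest and 10 lowest ratios that held them, and MRPL46, part of a divergent pair.
MRPS30 (chr5:44808950-44808977, plus strand, first capital at base 14 of the transcript): atcgcgggcaAAGATGGCggcggccagg
MRPL45 (chr17:38297171-38297198, plus strand, base 14): ttgcgggaacAAGATGGCagcccccata
MRPS10 (chr6:42217835-42217862, minus strand, base 10): cgggaccggcAAGATGGCggcgcggaca
MRPS27 (chr5:72320207-72320234, minus strand, base 17): ggtacgctccAAGATGGCtgcctccata
MRPL46 (chr15:88467363-88467390, minus strand, base 9): gggagaacgaAAGATGGCggcgcccgta
MRPS24 (chr7:43869481-43869508, minus strand, base 20): cgcttggcccAAGATGGCggcctccgtg
The same letters thus stood at nearly the same place in genes with more RNA after EP400 siRNA and in MRPS24, which had less. The 21 members with the letters had a median log2 ratio of 0.18 and the other 48 one of -0.03. For ETS the medians were -0.10 with and 0.17 without the letters.

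Most members carried the peaks of an active promoter in mock cells. Mock Pol II was found at an end of 75 members (97.4%), against 88.0% of all genes, mock MED26 at 71 (92.2%, against 80.7%), mock H2AZ at 67 (87.0%, against 77.1%) and mock H3.3 at 56 (72.7%, against 70.3%). The acetylation mark H3K18ac was at 55 (71.4%, against 74.6%) and H3K4me1, a mark common at enhancers, at 25 (32.5%, against 31.0%). Weighted to the members' level classes, the shares of all genes were 83.8% for mock H3.3, 81.99% for H3K18ac, 39.5% for H3K4me1, 91.8% for mock Pol II, 87.3% for mock MED26 and 76.96% for mock H2AZ. For H3.3 the weighting turned the direction, and the weighted shares of H3.3 and H3K18ac lay above the members' intervals (61.9 to 81.4 and 60.5 to 80.3). Pol II, MED26 and H2AZ occurred together at 66 members, among them 33 of the 34 with an EP400 peak. MRPL9, whose locus also holds OAZ3, had no peak of any list at its ends, and MRPL13, whose locus also holds MTBP, had neither Pol II nor MED26 there.

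After EP400 siRNA, Pol II was at an end of 63 members (81.8%, against 82.1% of all genes), MED26 at 72 (93.5%, against 77.4%), H2AZ at 52 (67.5%, against 56.5%) and H3.3 at 32 (41.6%, against 34.9%). Weighted to the members' level classes, the shares of all genes were 86.1% for Pol II, 84.9% for MED26, 52.5% for H2AZ and 40.5% for H3.3. The lists themselves differed in size. Pol II had 20987 peaks after EP400 siRNA and 30760 after mock siRNA, MED26 24366 and 27006, H2AZ 26526 and 58082, and H3.3 41439 and 79838, and no list carries a depth.

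**Figure D4:**
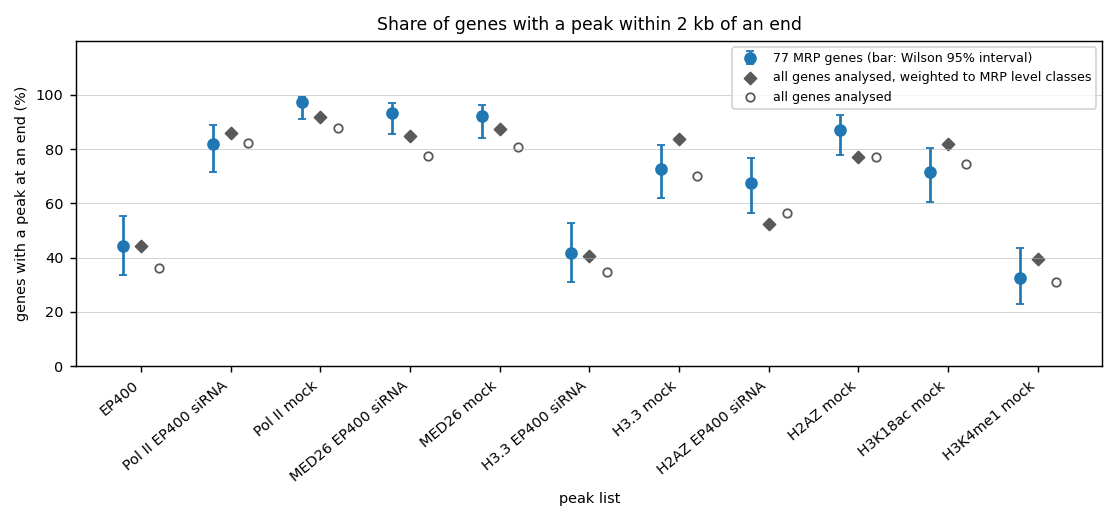
Share of genes with a peak within 2 kb of an end, for the 77 MRP genes (blue, with Wilson 95% intervals), all genes analysed weighted to the MRP level classes (diamonds) and all genes analysed (open circles). MED26 lies above both other values in each condition, and the EP400 share (44.2%) lies beside the level-weighted one (44.4%).

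A peak is called lost where the mock list had one at a gene end and the EP400 siRNA list none, and gained in the opposite case. For Pol II, 12 of the 77 members had a mock Pol II peak at an end and none after EP400 siRNA (15.6%, interval 9.15 to 25.3), against 6.69% of all genes analysed and 6.24% when weighted to the members' levels. None gained one, against 0.865% of all genes. The 12 were MRPL1, MRPL22, MRPL35, MRPL42, MRPL45, MRPL50, MRPL57, MRPS9, MRPS10, MRPS21, MRPS22 and MRPS31. MRPL57 and MRPS9, whose loci hold other genes, had a Pol II peak within the locus in both lists. At their ends the mock peaks covered only 281 and 100 bp. Of these 12, 10 had an RNA ratio above 0, against 45.3% of the 781 genes of the whole table that lost the peak. The medians were 0.59 and -0.09. MRPL45 is an example, with 400 bp of Pol II peak at its ends in mock cells and none after EP400 siRNA, beside an RNA ratio of 1.04. The 12 had short peaks in mock cells (median 550 bp, 100 to 900) and low RNA (median 9.78 FPKM). Only 1 of them was in the top level class. In the 3 classes below it 15 of 17, 10 of 10 and 4 of 4 members were above 0, whatever their Pol II peaks. The 63 that kept a peak had a median of 1100 bp (600 to 4705) and of 67.9 FPKM. Among genes of oxidative phosphorylation 12 of 76 also lost the peak, and 4 of 78 cytosolic ribosomal protein genes did. With both lists trimmed to the same number of widest peaks 11 members lost Pol II (14.3%, against 5.30% of all genes). With only the peaks at or above the median width of each list, ties at that width drawn at random, 33 did (42.9%, against 17.5%).

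Members with an EP400 peak that lost Pol II were MRPL1, MRPS10 and MRPS31. MRPL1 had 6.99 FPKM after EP400 siRNA and 4.29 FPKM in mock cells (log2 ratio 0.60), and 1 of its EP400 peaks (chr4:78783851-78784000) overlapped the mock Pol II peak. Over all members the Pol II peaks covered 49284 bp of the gene ends after EP400 siRNA and 97080 bp after mock siRNA, which is 50.8%, against 65.1% over all genes and 61.5% over the whole lists. The genes of oxidative phosphorylation had 51.1% and the cytosolic ribosomal protein genes 46.8%. Covered length was shorter after EP400 siRNA at 74 members and longer at 0. The same count was not made over all genes, where the covered length also fell, so it cannot be read as particular to the members.

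MED26 peaks were counted in the same way. None of the 71 members with a mock MED26 peak at an end lost it (0% of 77, interval 0 to 4.75, against 6.08% of all genes and 4.44% when weighted to the members' levels), and 1 gained one (1.30%, against 2.78%). Among cytosolic ribosomal protein genes 0 of 78 lost it, and 1 of 76 genes of oxidative phosphorylation did. The gene that gained a peak was MRPS30, with 100 bp after EP400 siRNA and none in mock cells. Of 92 mock MED26 peaks at member ends 78 (84.8%, interval 76.1 to 90.7) overlapped a peak after EP400 siRNA, against 69.7% at all genes. For Pol II 72 of 103 did (69.9%, against 69.8%). MED26 covered 53018 bp after EP400 siRNA and 59376 bp after mock siRNA at the members' ends, or 89.3%, against 80.1% over all genes. At 9 of the 12 members that lost Pol II the MED26 peak was in both lists, with none in either list at MRPL45, MRPL57 and MRPS9. With only the peaks at or above the median width, ties drawn at random, 2 members lost MED26 (against 8.45% of all genes) and 2 gained it.

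H3.3 was lost at 33 members (42.9%, interval 32.4 to 54.0, against 40.9% of all genes), kept at 23 and gained at 9 (11.7%, interval 6.27 to 20.7, against 5.57%). It was in neither list at 12. Weighted to the members' levels, 46.5% of all genes lost it and 3.26% gained it. Of 76 genes of oxidative phosphorylation 29 lost H3.3 and 8 gained it (10.5%). Of 78 cytosolic ribosomal protein genes 13 lost it and 3 gained it (3.85%). Of all 159 mock H3.3 peaks at member ends 12 overlapped a peak after EP400 siRNA (7.55%, against 7.6% at all genes). At the 23 members with H3.3 in both lists 10 of 57 mock peaks did (17.5%, against 15.7% at all such genes). The covered length was 10527 bp after EP400 siRNA and 58840 bp after mock siRNA, or 17.9%, against 19.7% over all genes. MRPL12 had the longest mock H3.3 coverage, at 4656 bp, and none after EP400 siRNA. MRPS34 had 0 bp after EP400 siRNA and 1700 bp after mock siRNA, and MRPL40 0 and 2200 bp in the same order. The 9 that gained were MRPL15, MRPL19, MRPL22, MRPL44, MRPL50, MRPL51, MRPS14, MRPS27 and MRPS28.

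The losses were counted with and without an EP400 peak. Of 27 members with EP400 and mock H3.3 at their ends 12 lost H3.3 (44.4%), against 46.5% of all such genes. Of 29 with mock H3.3 but no EP400 peak 21 did (72.4%), against 67.3% of all such genes. Over all genes with mock H3.3 the share was 58.3%, so the members' shares lay near those of genes in general.

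By H3.3 state, the 33 members that lost H3.3 had a median of -0.78 and held 9 of the 10 at least 2-fold lower, MRPL55 being the other. Of those 9, MRPS24, MRPL57 and MRPL43 lie in loci with other genes, so the ends need not be their own. The MRPS24 locus held 3 H3.3 peaks inside it after EP400 siRNA, and MRPL57 had only 100 bp of mock H3.3 at its ends. The 23 with H3.3 in both lists had a median of 0.03, the 9 that gained it 0.51 and the 12 with none 0.61. All genes showed the same order for the first 3 states, at -0.62, -0.19 and 0.41, with 0.13 for neither. RNA level moved with the states, since the members that lost H3.3 had a median level of 99.1 FPKM and those that kept it 42.0 FPKM, and 28 of the 33 were in the top level class. Within that class the median was -0.94 for the 28 that lost it and -0.43 for the 13 that kept it, against -1.04 and -0.80 for all genes of the class. Spearman's rho between mock H3.3 length at the ends and log2 ratio was -0.57 across the members (Pearson's r -0.46) and -0.39 across all genes (r -0.36).

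**Figure D5:**
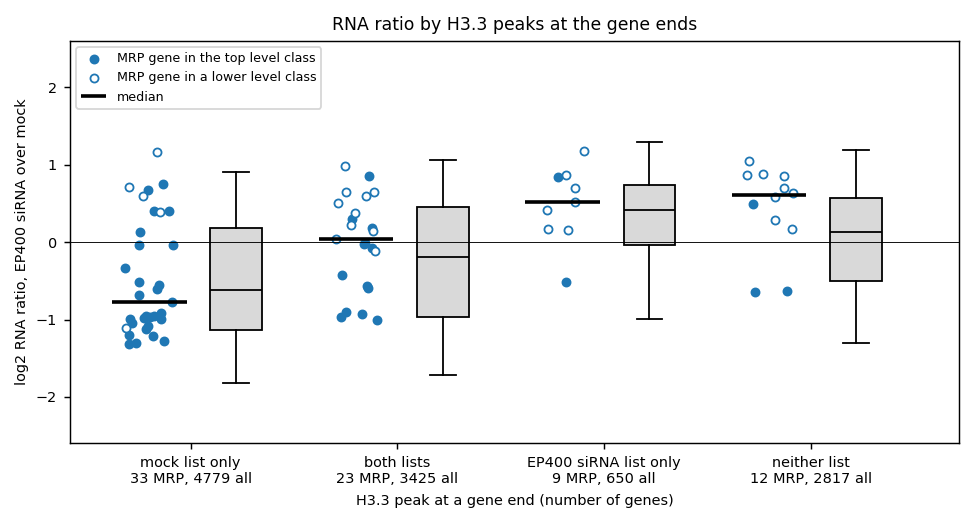
Log2 RNA ratio of EP400 siRNA over mock by the presence of H3.3 peaks at the gene ends, for MRP genes (points, filled in the top level class, black line at the median) and all genes analysed (grey boxes from the 25th to the 75th percentile, whiskers from the 5th to the 95th). The MRP median is -0.78 where H3.3 was in the mock list alone and 0.51 where it was in the EP400 siRNA list alone.

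H2AZ was lost at 16 members (20.8%, against 22.2% of all genes) and gained at 1 (1.30%, against 1.53%), which was MRPL12 with 100 bp after EP400 siRNA and none in mock cells. Of 117 mock H2AZ peaks 62 (53.0%, against 48.4%) overlapped a peak after EP400 siRNA, and the covered length was 19000 bp after EP400 siRNA and 40376 bp after mock siRNA, or 47.1%, against 43.1% over all genes. The members that lost H2AZ had a median RNA ratio of 0.14, against 0.13 for the 51 that kept it. MRPL34, with 22.8 FPKM after EP400 siRNA and 46.5 FPKM in mock cells (log2 ratio -0.99), lost both H3.3 and H2AZ.

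Some MRP genes start close to a gene on the other strand. Another locus lay within 1000 bp of 38 members (49.4%, against 29.2% of all genes analysed). Gaps were measured between the limits of loci, and a locus can hold more than 1 gene, so the starts can lie further apart. By RefSeq strand 20 members had a neighbour in back to back order (25.97%, against 11.3%), where the strand was at hand for 69 members and 8693 of all genes. Of 18 such pairs with an analysed neighbour, 14 had ratios of the same sign on the deposited scale (77.8%, against 70.9% of 522 pairs over all genes). TCP1, a subunit of the cytosolic chaperonin, had 51.5 FPKM after EP400 siRNA and 26.9 FPKM in mock cells (log2 ratio 0.91), next to MRPL18 with 51.04 and 31.8 FPKM (0.67). TTC31 had 17.7 FPKM after EP400 siRNA and 34.3 FPKM in mock cells (-0.92), 16 bp from MRPL53. EME2, a nuclease subunit gene 88 bp from MRPS34, had -0.91. HIRA, itself a chaperone for H3.3, lies 816 bp from MRPL40 and had 24.8 FPKM after EP400 siRNA and 39.6 FPKM in mock cells (-0.65), beside -0.04 for MRPL40.

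The 4 pairs with opposite signs on the deposited scale included the only one made of 2 members. MRPL46 (chr15:89002709-89010633, hg19) had 40.5 FPKM after EP400 siRNA and 24.5 FPKM in mock cells (log2 ratio 0.70), and MRPS11 (chr15:89010684-89021861), 50 bp away, had 48.2 FPKM after EP400 siRNA and 74.97 FPKM in mock cells (-0.63). No EP400 or H3.3 peak lay at the ends of either gene, and the Pol II peaks there covered 600 bp after EP400 siRNA and 900 bp after mock siRNA. The opposite signs depended on scaling, because MRPS11 stood at 0.11 and MRPL46 at 1.44 on rescaling to equal sums, and at 0.30 and 1.05 when centred on level and length classes. The ratios of MRPS24 (-1.20) and UBE2D4 (0.46) also had opposite signs. The 24 bp gap there ran from UBE2D4 to the limit of the MRPS24 locus, which also holds URGCP. MRPS24 and UBE2D4 thus need not share an end. Peaks at an end shared by a pair cannot be assigned to 1 of its genes.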

How the data were processed

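Per the submitters' processing notes, reads were aligned with Bowtie 0.12.9 and TopHat2 2.0.8, Cuffdiff 2.0.2 was used, and the build was hg19. The authors deposited FPKM with confidence limits per RefSeq transcript, and the counting strand is not given in the sources used here, so overlapping and antisense genes are uncertain. FPKM are not counts, and depth is unknown. Of 48669 transcript rows, 97.7% matched a RefSeq symbol. Rows under 200 nt (2116) and 122 genes whose estimate had failed were dropped, rows were summed per gene, genes with a mean of 1 FPKM or more were kept, and ratios were log2((EP400 siRNA + 1)/(mock + 1)).

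The 11 peak lists, as deposited, hold intervals without a score, and the peak caller is not given in the sources used here. Overlap of 1 bp or more counted. The 4 inputs were not analysed here. Wilson 95% intervals were used (SciPy 1.17.1, pandas 2.3.3, NumPy 2.4.6, Python 3.11.15) and cover counting error. Level, length and density each had 5 equal classes.

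The members and gene lists were chosen with earlier results of these data known. Named were EP400, the 10 members with the lowest and the 10 with the highest ratio among those with 5 FPKM or more, the 6 most abundant, those with an EP400 peak that lost or gained Pol II or MED26, up to 4 genes of each list by size of ratio, and neighbours of named members. Other names were chosen after their values were seen. Promoter motifs were searched in RefSeq sequence of GRCh38.p14, whose coordinates were not mixed with hg19. The scripts were tested on simulated data. Alternatives covered the pseudocount, filter, scaling, transcript choice, gene end and peak selection.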

Additional observations from a re-analysis of the deposited data

How the results depend on the processing

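No paired analysis was possible because every comparison of EP400 siRNA with mock had 1 library on each side, and the 3 numbered EP400 immunoprecipitations are in 1 list. The median log2 ratio of the members, 0.03 as deposited, was 0.23 with median centring, 0.76 on rescaling to equal sums, 0.47 when centred on level and length classes and 0.16 (0.157) when centred on density classes. The members at least 2-fold lower, 10 as deposited, numbered 5, 0, 0 and 2 under these scalings in the same order, and those at least 2-fold higher, 3 as deposited, numbered 10, 31, 20 and 5. Of all genes 15.64%, 5.56%, 11.51% and 10.78% were lower in that order, and 10.8%, 27.95%, 10.19% and 9.065% higher. With a pseudocount of 0.1 or 0.5 FPKM, 5 members were higher, against 11.28% and 8.37% of all genes. Members above 0 numbered 59 with level and length classes. The median of all genes, -0.20, became 0 by construction with median centring and 0.44 with equal sums.

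Of the peak shares, H3K4me1 was 14.3% with ends of 1 kb, and with ends of 5 kb mock H2AZ was 93.5% and gained H2AZ 0%. An overlap of 100 bp or more gave 28.6% for EP400, against 24.5% of all genes. Another choice kept only the peaks at or above the median width of each list, with ties at that width drawn at random. It gave 32.5% for EP400 (against 26.2% of all genes), 57.1% for mock H3.3 (56.3%), 76.6% for mock H2AZ (61.9%) and 33.8% for H3K18ac (49.7%). H3K4me1 was then at 11.7% (15.3%), lost Pol II at 42.9% (17.5%) and lost H2AZ at 31.2% (27.4%). In the 61 loci with 1 gene mock Pol II was at 100% and mock MED26 at 96.7%. Shares of all genes were not counted for ends of 1 kb or 5 kb or for loci with 1 gene. Lists with equal peak numbers gave 9.09% for gained H2AZ, against 9.20% of all genes. Also counted, chosen after seeing the data, were the start of transcription alone (54 members, 6227 of all genes) and the locus itself. The start gave 100% for mock Pol II (against 92.6% of all genes), 55.6% for mock H3.3 (65.3%) and 22.2% for H3K4me1 (25.4%). There 38.9% lost H3.3 (46.7%). Mock and lost H3.3 were thus rarer in the members at the start, unlike the unweighted shares at both ends. The locus gave 100% for mock Pol II (93.6%), 97.4% for mock MED26 (85.5%), 61.0% for mock H3.3 (74.5%) and 58.4% for H3K18ac (78.1%). Lost H2AZ was at 31.2%, not counted over all genes. The cause of these shifts was not tested. The other 116 values of this kind stayed within 1.5 times (counts), within their interval (shares) or within a small fixed shift (medians). No single member that was called reversed in sign. Of all 77 members, 53 kept their sign with density classes, 57 with level and length classes, 60 with equal sums and 71 with median centring. With 1 library per condition no value has a replicate spread, and lists without scores or depth limit what a lost peak shows.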

Other observations

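Peak combinations at the members' ends were read from the EP400 list and the mock lists. The most common, found at 13 members, was Pol II, MED26, H3.3, H2AZ and H3K18ac without EP400 or H3K4me1, with a median log2 RNA ratio of -0.60. The same set with EP400 was found at 11 members, with a median of -0.01. With H3K4me1 added, the set with EP400 was found at 8 members (median -0.45) and the set without it at 8 (-0.77). Pol II, MED26, H2AZ and H3K18ac without EP400, H3.3 or H3K4me1 were found at 6 members, with a median of 0.55. These sets were not counted over all genes or matched for RNA level, so their medians cannot be read as particular to a peak. The median GC content of the promoter window was 62.3% in the 35 members below 0 that have one and 58.4% in the 34 above 0. It was 66% in the 9 at least 2-fold lower. Across the members with a window, Spearman's rho between GC content and log2 ratio was -0.30 (Pearson's r -0.31), as a description of genes that share both libraries. The same correlation was not computed over all genes, and RNA level and gene density were not matched.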
